A study of Mus musculus with 8 samples.

Results

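The genes described here are 142 neighbours on the centromere-side part of mouse chromosome 13, between 3500000 and 48400000 in the mm9 build. They were taken from the 11807 genes tested among the 23309 genes of the deposited table. A gene was a member if its locus lay inside those coordinates and its level reached 1 FPKM (fragments scaled to transcript length and library size) in at least 4 of the 8 libraries. Genes named to be left out (Ucn3, Idi1, Elovl2, Bmp6, Id4, Inhba and Eef1e1) and small RNA genes were not members. The stretch holds 372 rows of the table, of which 142 were members, 10 were left out by name and 220 were below the level, 111 rows of the stretch being at 0 in every library. The coordinates were chosen because running medians of this same comparison were raised there, so the members' fold changes are a description of what was chosen and are read for no support.

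RNA was sequenced from N134 cells, a mouse line of strain C57BL/6 that is labelled as pancreatic beta cell tumor and is described by the series as pancreatic neuroendocrine. Libraries 5 to 8 (miR-431) came from cells that overexpressed GFP-miR-431. Libraries 1 to 4 (miR-LacZ), the control, came from cells that overexpressed GFP-miR-LacZ, so both groups carry a GFP-miR construct and no group is without one. The labels name no clones, and nothing states that the 4 libraries of a group are separate cultures. The p-values therefore reflect only how much these libraries differ, which could be technical.

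Most genes that lie side by side on a chromosome have their own promoters and regulators and unrelated functions. A change in the number of copies of a chromosome stretch, or in how open it is, can shift the RNA of many neighbours by a like factor, and genes whose level is set by feedback or by other regulators can depart from such a shift. A microRNA acts instead on single messages, by pairing of its seed with sites that lie mostly in 3′ untranslated regions. Neither DNA copies nor chromatin were measured in these libraries.

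The mature microRNA and its longest type of seed match among the members (8mer) are shown first, since the overexpressed RNA pairs with sites of this kind. Capitals mark the seed, bases 2 to 8, in the microRNA, and in the sites the match to the seed with the A that follows it, GCAAGACA, searched on the message strand only. The microRNA is from RefSeq (GRCm38.p6), and the sites are from 3′ untranslated regions of GENCODE M21 transcripts on GRCm38, each printed with its surroundings as a run of 30 bases, written 5′ to 3′.
mmu-miR-431-5p: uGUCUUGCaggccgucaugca
Net1: tgcagcttaggaaaGCAAGACAgtggtctt
Klf6: gccatttaggcctgGCAAGACAcgttctcc
Gtpbp4: aagctgtttcctatGCAAGACAgagccatg
Riok1: gctttgaacactcaGCAAGACAacattcta
Gcnt2: cagacacgagggaaGCAAGACAgattcttt
These 5 members were 3.65% of the 137 members with a 3′ untranslated region in the annotation, against 2.95% (334) of 11317 tested genes with one. The match to the seed alone, without the A, GCAAGAC, which the longer one contains, was found in 8 members (5.84%) and in 923 tested genes (8.16%); the further members were Zscan12, Zkscan3 and Rpp40. The 5 genes had log2 fold changes, miR-431 over miR-LacZ, of 0.56 for Net1 (a guanine nucleotide exchange factor for RhoA), 0.52 for Klf6 (a zinc finger transcription factor), 0.33 for Gtpbp4 (a GTPase of ribosome assembly), 0.58 for Riok1 (a kinase of small ribosomal subunit maturation) and 0.95 for Gcnt2 (an enzyme that branches glycans). All 5 values were above 0, as were 88.0% of all members, which were chosen for a raised level. The 8 members with either match had a median log2 fold change of 0.43, and members without had 0.39. Over all tested genes the medians were 0.02 with a match and -0.01 without. No effect of the microRNA is read from these values.

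Summed over the 142 members, the level was 3598, 3700, 3673 and 3810 FPKM in miR-431 libraries 5 to 8, against 2903, 2971, 2846 and 2424 FPKM in miR-LacZ libraries 1 to 4. Every miR-431 library lay above every miR-LacZ library, and on these sums the miR-431 libraries lay closer together. As a share of all FPKM without Mir431 itself, the sums were 0.714%, 0.651%, 0.625% and 0.669% in miR-431, against 0.536%, 0.505%, 0.464% and 0.442% in miR-LacZ. On these shares the groups were still apart but spread about equally. In bulk RNA, fewer cells carrying a transcript and less of it per cell cannot be told apart.

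Fold changes below are log2 of miR-431 over miR-LacZ on the scale log2(FPKM + 1), which understates changes of low genes, and "called" means a Benjamini-Hochberg adjusted p below 0.05 over all 11807 genes in limma. The members' median log2 fold change was 0.38, with quartiles of 0.25 and 0.59, against 0.12 over the 284 tested genes of the rest of chromosome 13 and -0.01 over all tested genes. On the ratio of mean FPKM, with no pseudocount, the members' median was 0.46 on the log2 scale, which is a 1.37-fold level. A log2 fold change above 0 was found in 125 members (88.0%) and below 0 in 17. Of the members, 82 (57.7%) were called higher, beside 15.4% of all tested genes, and 3 (2.11%; Dusp22, Tubb2a and Hist1h4i) were called lower, beside 13.8% of all tested genes. The groups did not overlap, with miR-431 higher, in 76 members (53.5%), beside 16.0% of all tested genes. The reverse was found in Dusp22 alone (0.704%), beside 15.1% of all tested genes. Because the stretch was chosen on this contrast, nothing is read from these counts.

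**Figure D1:**
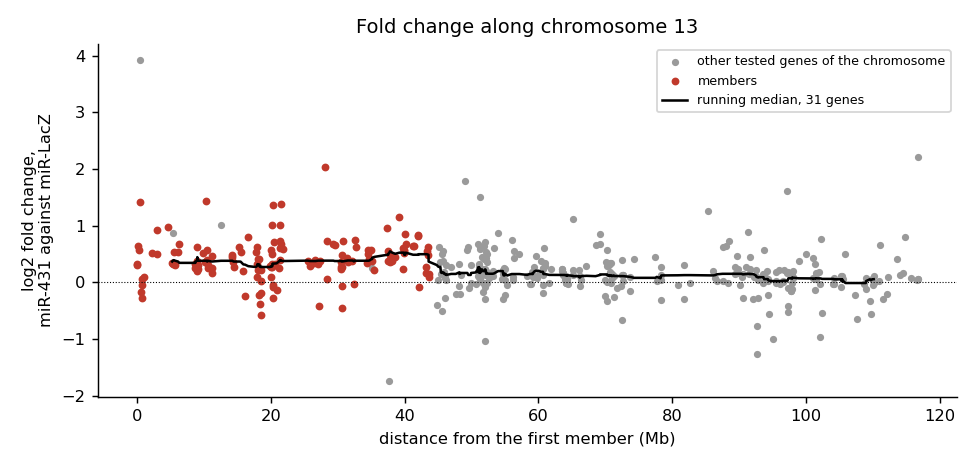
Log2 fold change of miR-431 over miR-LacZ (y axis) of each tested gene of chromosome 13 against its distance from the first member in megabases (x axis). Members are red, other tested genes of the chromosome are grey, and the line is the running median over 31 genes; it lies between about the members' quartiles inside the stretch and near 0.12 beyond it.

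The shift was not of equal size in all members. Their log2 fold changes ran from -0.57 in Hist1h4i to 2.04 in Foxf2. Between 0.2 and 0.6 lay 78 members, 35 lay above 0.6, 8 lay above 1, and 12 lay within 0.1 of 0. The median absolute deviation (MAD), the median distance of a gene from its group's median, was 0.176 for the members, 0.136 for the rest of chromosome 13 and 0.215 for all tested genes. For the other 19 chromosomes it ran from 0.158 on chromosome 19 to 0.279 on chromosome X, with a median of 0.178. Within 0.2 of their own median lay 55.6% of the members, beside 37.9% to 61.9% of the genes of the other chromosomes. The members' spread about their raised median thus lay within the range found on other chromosomes.

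**Figure D2:**
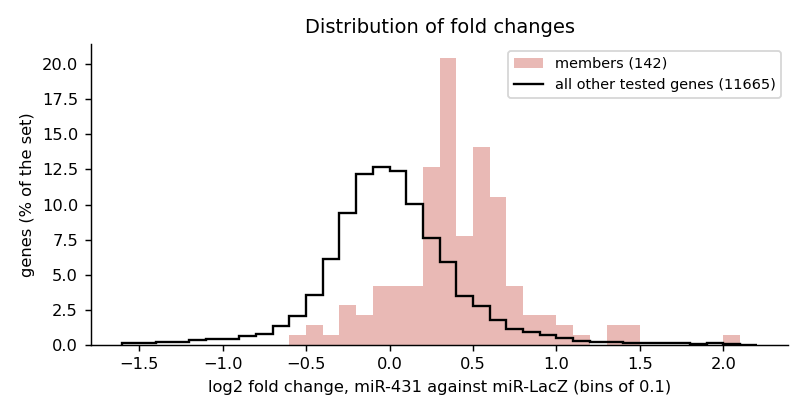
Share of genes (y axis, percent of each set) by log2 fold change of miR-431 over miR-LacZ in bins of 0.1 (x axis), for the 142 members (red bars) and the 11665 other tested genes (black line). The members' bars centre near 0.38, with a tail on both sides, while the line centres near -0.01.

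The medians of other chromosomes ran from -0.23 on chromosome X to 0.21 on chromosome 9, so the members' 0.38 lay above all of them. That sets a part chosen for its raised level against whole chromosomes. Chromosome 13 as a whole had 0.20, below chromosome 9. In running windows of 31 tested genes made up of members only (47 windows), the median log2 fold change was 0.27 to 0.39. Such windows do not cover the whole stretch, because tested genes left out by name interrupt it. The highest window of chromosome 13, with 29 members in it, reached 0.55. Of 11060 windows with no member, 572 (5.17%) reached at least 0.27, the lowest median of a window of members only. The median over all 142 members was reached by 156 (1.41%). Of these 156, 122 were at the far end of chromosome 8, where the highest reached 0.61. A further 21 were on chromosome 6, 5 on chromosome 15, and 4 each on chromosomes 9 and 17.

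The level of the stretch was also followed library by library, as the median over members of the log2 value minus the gene's miR-LacZ mean. It was 0.40, 0.38, 0.39 and 0.42 in miR-431 libraries 5 to 8, against 0.11, 0.07, -0.04 and -0.15 in miR-LacZ libraries 1 to 4. The miR-431 libraries were within 0.0384 of each other, while the miR-LacZ libraries spanned 0.260 and did not sit at 1 common level. Between the groups a gap of 0.27 separated the lowest miR-431 library from the highest miR-LacZ library. Such a separation of medians was common. Over chromosomes 3, 6, 9, 10, 15 and 17 every miR-431 library also lay above every miR-LacZ library, with gaps of 0.025 to 0.158. Over chromosomes 2, 4, 5, 11, 12, 14, 16, 19 and X every miR-431 library lay below. Over the rest of chromosome 13 the miR-431 libraries had 0.16, 0.11, 0.12 and 0.13, and the miR-LacZ libraries had 0.02, -0.01, -0.00 and -0.01. On the other chromosomes, which hold more tested genes than the stretch, the span of the miR-LacZ libraries was 0.0315 on chromosome 4 to 0.175 on chromosome 18, with a median of 0.0724. The members' 0.260 lay above that range. A like spread was found in a single part beyond the stretch, named after its values were seen. Between 85 and 100 Mb of chromosome 13 (50 genes) miR-LacZ libraries 1 to 4 had 0.15, -0.02, -0.02 and -0.12, while other parts beyond the stretch spread less. Library miR-LacZ 4 was the lowest of all 8 for 81 members (57.0%) and miR-LacZ 3 for 36 (25.4%). Leaving out any 1 library, the members' median log2 fold change was 0.36 (without miR-LacZ 4) to 0.42 (without miR-LacZ 1), and 62 to 89 members were called higher.

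**Figure D3:**
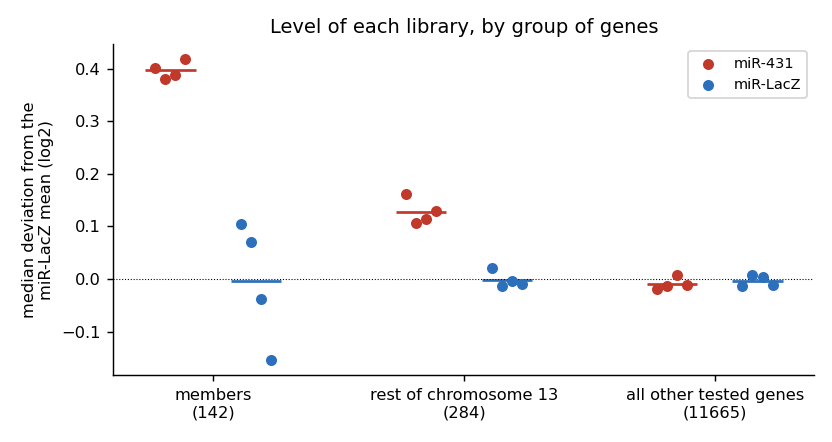
Median deviation from the miR-LacZ mean on the log2(FPKM + 1) scale (y axis) in each library, for the members, the rest of chromosome 13 and all other tested genes (x axis). Each point is a library (red miR-431, blue miR-LacZ) and each bar is the mean of its group; over the members the miR-431 points lie at 0.38 to 0.42 and the miR-LacZ points spread between -0.15 and 0.11.

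Libraries miR-431 5 and miR-LacZ 1 differed from the other 6 in the steps of their lowest values, though not in their overall correlation with their own groups. Of the genes below 0.1 FPKM in both libraries of a pair, 18.5% to 23.8% shared the commonest ratio, within a log2 span of 0.02, in pairs among the other 6. The share was 8.79% between miR-431 5 and miR-LacZ 1, and 1.78% to 2.41% when either was paired with another library. The comparison was therefore also taken within each set. The members' median was 0.33 between miR-431 5 and miR-LacZ 1, and 0.41 over the other 6 libraries.

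Along the stretch, members were grouped into 9 bins of about 5 Mb with 12 to 22 members each. The bins' median log2 fold changes were 0.41, 0.34, 0.37, 0.21, 0.45, 0.38, 0.37, 0.51 and 0.59, from the centromere side outward. In all 9 bins every miR-431 library lay above every miR-LacZ library. The smallest gap, 0.0191, was in the fourth bin (18.5 to 23.5 Mb), and the largest, 0.457, was in the last bin. Library miR-LacZ 4 was at -0.26 to -0.01 over the 9 bins. In the last bin (43.5 to 48.4 Mb) the miR-LacZ libraries were close together, at 0.04, -0.03, -0.08 and -0.01, against 0.50, 0.56, 0.57 and 0.58 in miR-431 libraries 5 to 8. Beyond the stretch, bins had medians of 0.16, 0.20, 0.13, 0.12, 0.11 and 0.06 outward. In those from 48.4 to 85 Mb every miR-431 library also lay above every miR-LacZ library, with gaps of 0.0928, 0.0979, 0.0787 and 0.0133. From 85 Mb on the groups overlapped.

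**Figure D4:**
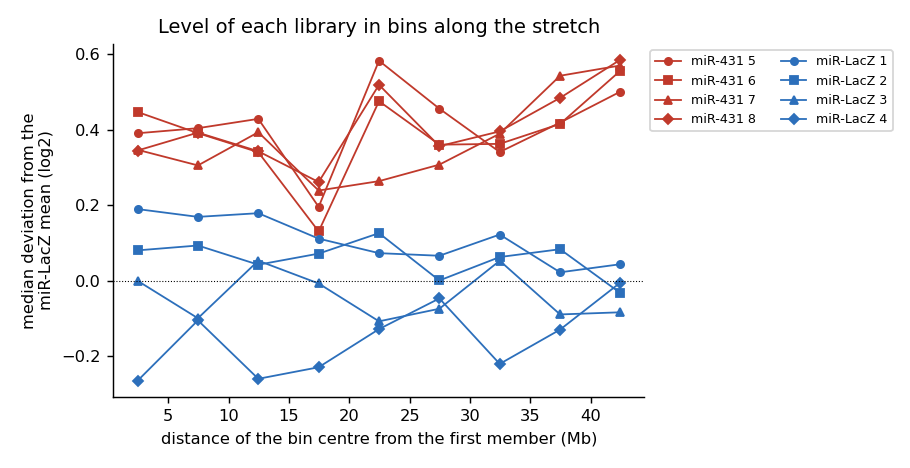
Median deviation of the members from the miR-LacZ mean (y axis, log2) in 9 bins along the stretch, placed by the distance of the bin centre from the first member in megabases (x axis). Red lines are the miR-431 libraries and blue lines the miR-LacZ libraries; no red line crosses a blue one, the groups come closest in the fourth bin, and miR-LacZ 4 varies from -0.26 to -0.01.

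At the centromere-side end no tested gene lies before the members. The first are Gdi2 and BC016423, which share a locus in the table (chromosome 13, 3537320 to 3610354, mm9), and Asb13, an adaptor of a ubiquitin ligase. Their log2 fold changes were 0.32, 0.31 and 0.64. At the other end the last members were Tpmt (an enzyme that methylates thiopurine drugs), with 0.62, Dek, with 0.15, and Kdm1b (a histone H3 lysine demethylase), with 0.09. Just outside lay Zfp169, with 0.04, Ptpdc1 (a protein phosphatase), with 0.62, and Phf2 (a histone demethylase), with 0.37. Values just inside and just outside the boundary thus overlapped. At the level threshold, the fourth highest library was 1.02, 1.04 and 1.09 FPKM for Hist1h2bj, Hist1h4b and Hist1h3c, which were just inside. It was 0.990, 0.896 and 0.875 FPKM for Hist1h2bb, Pgbd1 and Hist1h4a, just outside.

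Members differed in level and length as well. By mean level, the 47 lowest (0.856 to 5.30 FPKM) had a median log2 fold change of 0.33, the 47 in the middle 0.38 and the 48 highest (17.1 to 220 FPKM) 0.50. On the ratio of mean FPKM the same classes had 0.47, 0.43 and 0.49, with no order. Across the 142 genes, which share libraries and are not independent, fold change correlated with locus length at Pearson 0.31 and Spearman 0.33, and with position at 0.085 and 0.15.

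The highest member was Scgn, which encodes secretagogin, a calcium-binding protein of endocrine cells. Scgn had 296, 253, 290 and 252 FPKM in miR-431, against 186, 181, 184 and 122 FPKM in miR-LacZ, and its log2 fold change was 0.71 ± 0.146 (SE). The groups did not overlap, and miR-LacZ 4 was the lowest.

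The counts by role that follow are set beside the 57.7% of all members and the 15.4% of all tested genes called higher, and, as the stretch was chosen on this contrast, none is read as a trait of its list. Genes of secretion and trafficking made up 18 members, of which 11 were called higher, none lower and 7 not, with a median of 0.45 and a lowest value of 0.20. Gdi2, which returns Rab GTPases from membranes to the cytosol, had 148, 143, 148 and 146 FPKM in miR-431, against 140, 130, 110 and 94.2 FPKM in miR-LacZ. The groups did not overlap, the miR-LacZ libraries differed far more among themselves, and Gdi2 was not called. Ero1lb, an oxidase that forms disulfide bonds in the endoplasmic reticulum of secretory cells, averaged 187 ± 36.3 FPKM in miR-431, against 149 ± 25.8 FPKM in miR-LacZ (SD, n = 4 each), with overlapping groups. Its log2 fold change was 0.32 and it was not called. Ssr1 and Txndc5, a subunit of the translocon-associated complex and a disulfide isomerase of the same compartment, had 0.51 and 0.57 and were called higher.

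Of 12 mitochondrial members 10 were called higher and none lower, with a median of 0.58 against 0.38 over all members. The lowest of them was Mrpl32, a protein of the mitochondrial ribosome, with 0.17. Tmem14c, a mitochondrial membrane protein of heme synthesis, had 0.55, and Acot13, a thioesterase, had 1.01 ± 0.334 (SE). Tmem14c lost its call without miR-431 8 (adjusted p = 0.0502). Acot13 was called over 8 libraries (adjusted p = 0.0455) but, among fits without 1 library, only without miR-LacZ 3, with adjusted p of up to 0.111 in the other 7, and its value was 0.67 without miR-LacZ 4. Acot13 was read at 79.3, 86.8, 144 and 99.3 FPKM in miR-431, against 51.2, 53.5, 87.7 and 23.8 FPKM in miR-LacZ. The libraries of each group differed widely there, and miR-LacZ 3 overlapped the miR-431 values. Lyrm4 and Fars2, an iron-sulfur cluster assembly factor and a mitochondrial tRNA ligase, had 0.75 and 0.62.

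Of 13 members in RNA processing and ribosome assembly, 10 were called higher and none lower, with a median of 0.39. Nol7, a nucleolar protein that shares its locus with Ranbp9, had 58.6, 63.1, 63.3 and 64.6 FPKM in miR-431, against 44.5, 46.7, 38.6 and 42.6 FPKM in miR-LacZ. Its groups stood well apart, and its log2 fold change was 0.53 ± 0.0838 (SE). Pak1ip1, a ribosome assembly factor, had 0.39 and was called higher, a call that was lost without miR-431 6, miR-431 7 or miR-431 8 (adjusted p of up to 0.0578).

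Among 25 chromatin and transcription regulators, 13 were called higher, none lower and 12 not, with a median of 0.32. The most abundant, Dek, a chromatin-binding protein, and Gmnn, which blocks renewed loading of replication origins, had 0.15 and 0.25 and were not called. Jarid2, a partner of Polycomb complex PRC2, had 0.65 and E2f3, a cell cycle transcription factor, 0.34, and both were called higher. A cluster of 7 zinc finger genes had a median of 0.29, from 0.10 to 0.63, with 2 genes called higher.

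Protein turnover was represented by 10 members, with 7 called higher, none lower and a median of 0.58. Its most abundant members were not called. Psma2, a proteasome core subunit, had 0.26, and Psmg4, a proteasome assembly chaperone, had -0.07. The cytoskeleton and signalling list, with 17 members, had 12 called higher, 2 lower (Tubb2a and Dusp22) and a median of 0.56. As drawn up, that list also holds Gmpr, an enzyme that reduces GMP to IMP. Metabolic enzymes and transporters, 22 members, had 13 called higher, none lower and a median of 0.55. Its range of -0.27 to 1.42 was set by aldo-keto reductases. Some genes stand in more than 1 list, and 24 members are in none.

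Which members stood away from the shift was asked with a second fit. From each library's value of a gene, the running median deviation of its 30 nearest tested neighbours on the chromosome was removed, and the same limma test was run on all 11807 genes. The stretch was chosen on the shared shift, which this step removes, but the libraries are the same, so the tests are no independent repeat. Higher than their neighbours were 17 members (12%), beside 11.1% of all tested genes, and lower were 9 (6.34%), beside 9.28% of all tested genes. In this fit neither share was much above the share over all genes, and 116 members did not pass. The upward count holds 3 genes that reached 1 FPKM in all miR-431 libraries but in only 1 (Foxf2), 2 (Akr1c14) or 3 (Adarb2) of the miR-LacZ libraries. The downward count holds Hist1h4m, which reached it in 2 miR-431 libraries and in all 4 miR-LacZ libraries. These genes passed the level filter through the group where they are high. Their departures are read for no support, though they stand in the counts that follow. Of the 26 departures, 16 (10 higher and 6 lower) passed in each of the 8 fits that left out 1 library, and 20 passed over the 6 libraries without miR-431 5 and miR-LacZ 1. With no filter on low values 31 members passed upward and 4 downward, beside 2201 and 2091 of the 18903 genes then tested. Upward that was a larger share than over all genes, and downward a smaller one. With library weights 35 and 29 members passed, beside 2631 and 2494 of 11807 genes, shares close to those over all genes.

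Foxf2, a forkhead transcription factor (31717684 to 31723275, on chromosome 13 in mm9 as are all coordinates here), departed most. It had 8.67, 4.82, 4.24 and 6.78 FPKM in miR-431, against 1.197, 0.586, 0.547 and 0.478 FPKM in miR-LacZ. Only 1 miR-LacZ library reached 1 FPKM, so Foxf2 passed the level filter through miR-431, the group where it is high, and had to differ. Its log2 fold change of 2.04 and its departure from its neighbours of 1.64 are therefore given with no test.

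Gng4, a gamma subunit of heterotrimeric G proteins (13876805 to 13920162), had 62.7, 49.0, 40.8 and 60.1 FPKM in miR-431, against 29.3, 22.6, 16.3 and 11.5 FPKM in miR-LacZ. No miR-431 library was as low as any miR-LacZ library. Its departure was 1.01 ± 0.191 (SE; adjusted p = 0.00488). Gpld1, a phospholipase that cuts glycosylphosphatidylinositol anchors, had 21.3, 19.9, 14.4 and 20.5 FPKM in miR-431, against 9.06, 8.03, 5.76 and 4.53 FPKM in miR-LacZ. Its groups were also apart, and its departure was 0.94 (adjusted p = 0.00230). Pfkp, a phosphofructokinase of glycolysis that shares its locus with Pitrm1, averaged 25.9 ± 2.27 FPKM in miR-431, against 13.3 ± 3.04 FPKM in miR-LacZ (SD, n = 4 each) and departed by 0.56. Gcnt2, 1 of the 5 genes with the seed match printed above, averaged 15.04 ± 1.45 FPKM in miR-431, against 7.26 ± 0.518 FPKM in miR-LacZ (SD, n = 4 each). Its departure of 0.51 passed over 8 libraries (adjusted p = 0.0121) and missed the threshold over the 6 (adjusted p = 0.0554). Phactr1, a regulator of protein phosphatase 1 and actin, departed by 0.66 (adjusted p = 0.0282). That call was lost without miR-431 6, miR-431 8, miR-LacZ 1 or miR-LacZ 3, with adjusted p of 0.0528 to 0.0879.

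Further upward departures, named after their values were seen because they passed, were Adarb2 (0.61), a relative of RNA-editing enzymes, Elmo1 (0.51), which acts with Dock proteins to activate Rac, and Mylip (0.42), a ubiquitin ligase of the LDL receptor. Adarb2 reached 1 FPKM in all miR-431 libraries but in only 3 miR-LacZ libraries, so its departure is given with no test. Elmo1 and Mylip held in every fit that left out 1 library. Gmpr (0.44), which reduces GMP to IMP, passed only without miR-431 5 or miR-LacZ 3 among those fits. Ccdc90a (0.41), a regulator of mitochondrial calcium uptake, and BC005537 (0.36) passed only without miR-431 7 or miR-LacZ 1. Vps41 (0.28), a subunit of the HOPS tethering complex, passed without miR-431 5, miR-431 8 or miR-LacZ 1, and Wrnip1 (0.29), an ATPase that binds the Werner helicase, without miR-431 8 alone.

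In the other direction, Dusp22, a dual-specificity phosphatase (30751964 to 30803094), had 9.84, 10.1, 9.37 and 10.1 FPKM in miR-431, against 12.8, 13.9, 14.1 and 13.4 FPKM in miR-LacZ. It was lower in every miR-431 library and varied little within either group. Its log2 fold change was -0.42 and its departure -0.84 ± 0.0883 (SE; adjusted p = 0.000173). Tubb2a, a beta tubulin (34166146 to 34169877), had 62.6, 87.9, 64.0 and 76.3 FPKM in miR-431, against 84.2, 109, 97.5 and 106 FPKM in miR-LacZ. Its groups overlapped through miR-431 6 and miR-LacZ 1, and its departure was -0.84 ± 0.148 (SE; adjusted p = 0.00346). Tubb2a has a near-identical neighbour, Tubb2b, and the split of reads between them is uncertain. Its log2 fold change without its neighbours removed was -0.45, and that call was lost without miR-431 5, miR-431 7, miR-LacZ 2 or miR-LacZ 4.

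**Figure D5:**
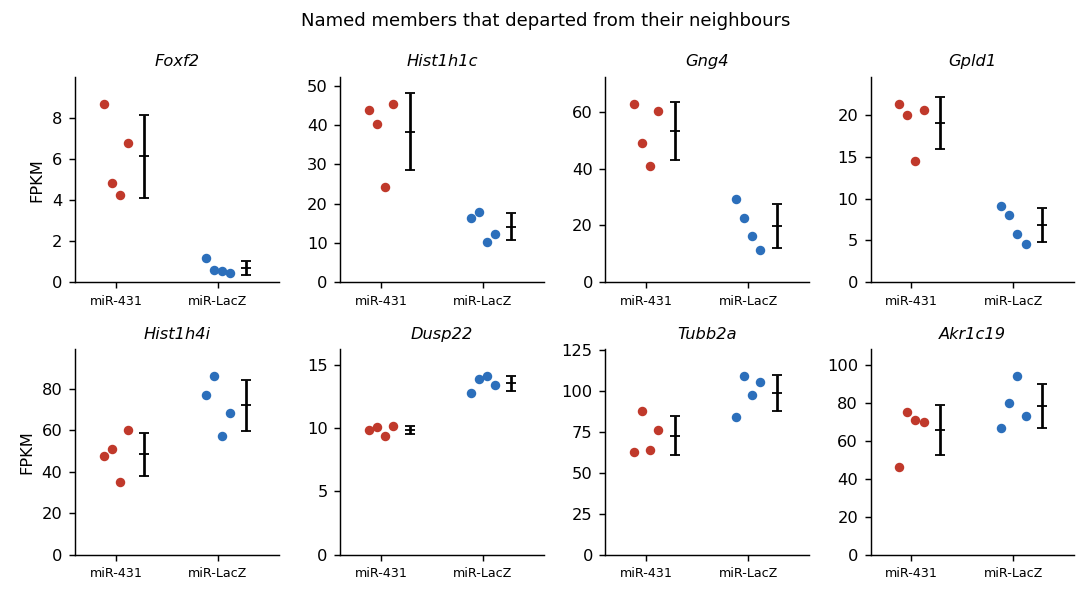
FPKM (y axis) of 8 named members that departed upward (top row: Foxf2, Hist1h1c, Gng4, Gpld1) or downward (bottom row: Hist1h4i, Dusp22, Tubb2a, Akr1c19) from their neighbours, with miR-431 on the left and miR-LacZ on the right of each panel. Each point is a library and each bar is the mean with its SD (n = 4); the groups are apart in the top row and in Dusp22 and overlap in the other 3 panels.

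The 5 aldo-keto reductase members, enzymes that reduce steroid and other carbonyl groups, lie within 1 cluster and share similar sequence, so the split of reads among them is uncertain. Their median log2 fold change was -0.04, and 4 of the 5 lay below their neighbours. Akr1c19 had 46.4, 75.3, 71.1 and 70.3 FPKM in miR-431, against 66.8, 80.2, 94.3 and 73.3 FPKM in miR-LacZ. Its groups overlapped, with miR-431 5 lowest, and its departure was -0.66 (adjusted p = 0.0389). That departure passed without miR-431 7 or miR-LacZ 1 and was lost when any of the other 6 libraries was left out, with adjusted p of up to 0.0885. Akr1c12 and Akr1c13 departed by -0.44 and -0.57 and did not pass. Akr1c14 went the other way, with 4.89 ± 1.25 FPKM in miR-431, against 1.23 ± 0.634 FPKM in miR-LacZ (SD, n = 4 each). Only 2 miR-LacZ libraries reached 1 FPKM, so Akr1c14 passed the level filter through miR-431, where it is high. Its departure of 1.06 is therefore given with no test.

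Apart from histone genes, the remaining downward departures were of low genes or small. Atxn1 (-0.52), a transcriptional regulator, Cmah (-0.54), a sialic acid hydroxylase, and Rpp40 (-0.42), a subunit of RNase P with the seed match without the A, all averaged under 3 FPKM in both groups. Atxn1, for example, averaged 2.56 ± 0.305 FPKM in miR-431, against 2.77 ± 0.437 FPKM in miR-LacZ (SD, n = 4 each). Their log2 fold changes of -0.08, -0.13 and -0.03 were close to 0 while their neighbours were higher in miR-431, and the 3 departures passed in every fit that left out 1 library. Heatr1, a ribosome assembly factor, departed by -0.24 (adjusted p = 0.0416), and left-out fits lost it each time, with adjusted p of 0.0800 to 0.115.

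The Hist1 cluster, the main histone gene cluster, supplied 14 members, of which 3 were called higher, 1 lower and 10 not. Their median log2 fold change was 0.02, 7 of the 17 members below 0 were histone genes, and 11 of the 14 averaged under 5 FPKM. Hist1h2bj, Hist1h4b, Hist1h3a and Hist1h4m reached 1 FPKM in fewer miR-431 than miR-LacZ libraries. They thus passed the level filter more through miR-LacZ, where they are higher. Hist1h4j, Hist1h3c and Hist1h2bg reached it in more miR-431 libraries. The median and the count below 0 are therefore read for no support. Histone messages made during DNA replication end in a stem-loop instead of a poly(A) tail. That element was found in the annotated transcripts of 12 of the 14 genes. It was not found in Hist1h2bc, and the annotation used here has no 3′ untranslated region of Hist1h4k to search. Over all genes it was found in 25 of 11724 matched tested genes (0.213%). The search took the named histone 3′ stem-loop on the message strand of GENCODE M21 transcripts (GRCm38). It is shown for the genes that departed, with the stem-loop in capitals.
Hist1h4i: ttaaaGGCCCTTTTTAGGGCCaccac
Hist1h4m: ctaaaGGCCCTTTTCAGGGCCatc
Hist1h1c: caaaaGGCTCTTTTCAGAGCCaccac
Genes with the element had a median log2 fold change of -0.06, from -0.57 to 1.36, and 8 of the 12 lay below their neighbours. The genes named above that passed the filter unevenly are all among the 12, so these values are read for no support either. Hist1h2bc had a log2 fold change of 1.01 and Hist1h4k 0.41, and the departure of Hist1h4k, 0.09, did not pass.

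Hist1h4i, a histone H4 gene, had 47.5, 50.7, 35.3 and 60.2 FPKM in miR-431, against 76.9, 86.0, 57.0 and 68.2 FPKM in miR-LacZ. Its groups overlapped only through miR-431 8 and miR-LacZ 3, and its departure was -0.86 ± 0.143 (SE; adjusted p = 0.00243). Its log2 fold change of -0.57 was no longer called without miR-431 5, miR-431 6, miR-431 7, miR-LacZ 1 or miR-LacZ 2. Hist1h4m, a low H4 gene, passed the level filter through miR-LacZ, where it is high, with only 2 miR-431 libraries at 1 FPKM. Its departure of -0.69 is therefore given with no test. Hist1h1c, a linker histone gene, went upward, with 43.7, 40.2, 24.1 and 45.4 FPKM in miR-431, against 16.4, 17.8, 10.2 and 12.3 FPKM in miR-LacZ. Every miR-431 library was above every miR-LacZ library, and the departure was 1.07 ± 0.180 (SE; adjusted p = 0.00258). Hist1h2bc, a histone H2B gene, averaged 35.5 ± 10.4 FPKM in miR-431, against 16.6 ± 2.998 FPKM in miR-LacZ (SD, n = 4 each). Its departure of 0.73 (adjusted p = 0.0217) was lost without miR-431 5, miR-431 6, miR-431 8, miR-LacZ 3 or miR-LacZ 4, with adjusted p of up to 0.0726. Histone genes of a class are near-identical in sequence, so reads may have been split among them. With the 14 histone genes left out, an alternative chosen after seeing the data, the members' median log2 fold change was 0.39 and their MAD 0.162.

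Over the whole series, sums per library were 521889 to 625005 FPKM, and 11603 to 11790 genes reached 1 FPKM. No read counts per library were at hand, so counting error is unknown. Mir431 was at 18114, 32890, 37769 and 27269 FPKM in miR-431, and no miR-LacZ library had any (0 in each). All 8 beta cell markers were tested, and their sums, mostly Ins2 and Iapp, were 20080 to 32760 FPKM in miR-431, against 24190 to 40380 FPKM in miR-LacZ. Single markers moved with the groups. Ins1 was at 218 to 522 FPKM in miR-431, against 2063 to 5291 FPKM in miR-LacZ, Pdx1 at 158 to 216, against 237 to 343, and Nkx6-1 at 62.2 to 72.9, against 81.5 to 108. The groups overlapped in Ins2, Mafa, Neurod1, Iapp and Slc2a2, and Iapp averaged 8676 FPKM in miR-431, against 6909 FPKM in miR-LacZ. Markers of other cells were low, with Amy2b, Ptf1a and Col3a1 at 0 in every library, and the part of beta cell and other markers in the results was not tested. Their highest library sums were 0.332 FPKM in miR-431, against 3.04 FPKM in miR-LacZ for 5 acinar genes, and 0.584 FPKM in miR-431, against 0.530 FPKM in miR-LacZ, for 4 duct genes. For 4 fibroblast genes they were 0.679 FPKM in miR-431, against 2.85 FPKM in miR-LacZ, for 4 endothelial genes 2.86 in miR-431, against 0.763 in miR-LacZ, and for 4 leukocyte genes 1.81 in miR-431, against 1.59 in miR-LacZ.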

How the data were processed

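The authors deposited FPKM values for 23309 genes in 8 libraries; how they were scaled is not given in the sources used here. Per the submitters' processing notes, which give no role or order, the tools were TopHat2 2.0.11, Cufflinks 2.1.1, cutadapt and CASAVA 1.8.2, and the build was mm9. Per the labels' protocols, total RNA went into Illumina TruSeq RNA libraries. The members, lists, tests and alternatives were chosen with earlier results of these data known.

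The 11807 genes that reached 1 FPKM in 4 or more libraries were fitted with limma 3.58.1 (R 4.3.3, mean-variance trend) on log2(FPKM + 1), 4 libraries against 4 with no covariate, and called at an adjusted p below 0.05. Departures used the same fit after removal of running medians (31 genes, the gene itself left out). The script was tested on simulated data with 200 changed genes. Named genes were up to 8 members with the largest passing departure each way and a mean of at least 5 FPKM in the higher group, the 2 most abundant of each list, and 3 at each edge. Other genes were named after their values were seen.

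No libraries of a group were near-identical: at most 8.94% of genes were within 1% in any pair. That pair was miR-431 6 and miR-431 8, which were closer than any other, with a Pearson correlation of 0.991. The next highest share was 4.85%, between miR-431 6 and miR-431 7. Of the 142 members, 17 share a locus with another row, and strand use is not stated, so overlapping genes are uncertain. Sequences were matched by symbol or by a unique synonym for 140 members (not BC016423 and Gm10336). Alternatives changed the pseudocount, level filter, scaling, trend, weights, window and libraries. Python 3.11.15, pandas 2.3.3, numpy 2.4.6, scipy 1.17.1 and matplotlib 3.10.9 were used.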

Additional observations from a re-analysis of the deposited data

Results flagged for a closer look

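In 3 of 60 groups of 4 libraries looked at for 29 named members and other levels, 1 library stood far from the others of its group by Dixon's criterion; chance gives about 1 in 20 such groups. Hist1h2bc was at 20.1 FPKM in miR-431 7, against 39.3, 39.3 and 43.1 FPKM in miR-431 5, 6 and 8. Ero1lb was at 111.0 FPKM in miR-LacZ 3, against 158, 162 and 167 FPKM in miR-LacZ 1, 2 and 4. Foxf2 was at 1.2 FPKM in miR-LacZ 1, against 0.586, 0.547 and 0.478 FPKM in miR-LacZ 2, 3 and 4.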

How the results depend on the processing

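No paired analysis was possible because the groups share no replicate number (5 to 8 in miR-431, 1 to 4 in miR-LacZ). The members' median log2 fold change was 0.34 to 0.46 under every alternative except among members at 10 FPKM or more, where it was 0.50 with a MAD of 0.199. The MAD was 0.198 and 0.202 with pseudocounts of 0.1 and 0.01, 0.165 with the 5 FPKM filter, 0.189 with quantile normalization and 0.186 without miR-431 5 and miR-LacZ 1. With alternatives added after seeing the data it was 0.162 without histone genes and 0.200 on the ratio of mean FPKM. Library weights gave 5845 called genes (2858 higher and 2987 lower) and 5 members lower. They gave 35 upward and 29 downward departures of members, beside 2631 and 2494 over all 11807 genes. With no filter 31 and 4 members departed, beside 2201 and 2091 of 18903 genes. With the 5 FPKM filter, which also tests fewer members, 10 and 4 departed, beside 877 and 715 of 9367 genes. With a term for libraries 1 and 5 there were 15 downward departures, beside 1482 of 11807 genes. The cause of these differences was not tested.

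Leaving out each library in turn gave 2480 to 3350 called genes (1359 to 1765 higher and 1121 to 1585 lower), a median of 0.36 to 0.42, a MAD of 0.160 to 0.205, 62 to 89 members called higher, 1 to 3 lower, 10 to 15 upward departures and 7 to 12 downward; downward calls of members fell to 1 without miR-431 5, miR-431 7 or miR-LacZ 2, and upward departures to 10 without miR-431 6. Over all tested genes those fits gave 904 to 1239 upward and 697 to 1051 downward departures. No result changed its sign among called values. Of the values for single genes under an alternative, 765 kept their side of the threshold, 61 lost a call and 9 gained one. Depth is unknown, so differences between members near 1 FPKM have an error that is only seen in the spread of 4 libraries.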
